A study of Mus musculus with 36 samples.

Results

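DBA/2J and C57BL/6J are inbred laboratory mouse strains that differ at many loci, and gene expression in their brains was compared here at rest, without sleep deprivation. The comparison covers every probe set of the array other than the manufacturer's controls: 45037 probe sets on 6 of the 36 arrays of the study, 3 from DBA/2J and 3 from C57BL/6J control brain. All mice were males of 12 to 13 weeks. The control mice stayed in their home cages and were killed at zeitgeber time (ZT) 6, that is 6 h after light onset, beside mice of the same strain kept awake for those 6 h. Each array carried pooled whole-brain RNA of 3 mice, so each group stands for 9 mice, and no error below measures the spread between single animals. The study also holds AKR/J mice, sleep-deprived mice of all 3 strains, and liver. The AKR/J and sleep-deprived brain arrays share a fit with the 6 arrays, so each error after ± is a limma standard error from the spread of all 18 brain arrays. Beyond that, the other arrays serve to set the control brain values beside the same genes elsewhere.

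Both strains are parents of a widely used panel of recombinant inbred lines, in which brain traits such as seizure threshold, alcohol preference and sleep have been mapped. DBA/2J carries the dilute allele of Myo5a, the brown allele of Tyrp1, a truncated Gpnmb and extra copies of Glo1 and Alad. C57BL/6J carries a deletion in Nnt and a non-coding deletion in Gabra2 that lowers its RNA. In such panels, many regulatory variants are known to act on the gene beside them.

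Values are log2 expression values, in which 1 unit is a doubling. The arrays carried brain RNA by their markers: the neuronal vesicle-fusion gene Snap25 lay between 12.64 and 12.82 on the 6 arrays and the myelin gene Mbp between 13.05 and 13.20, while the liver secretory gene Alb lay between 3.74 and 4.31. Correlations over all probe sets were 0.989 to 0.997 within C57BL/6J, 0.994 to 0.996 within DBA/2J and 0.985 to 0.992 between the strains. One array in each strain stood apart in the actin control, whose 3' minus 5' difference was 1.13 in C57BL/6J array 2 and 0.98 in DBA/2J array 3, against 0.58 to 0.63 on the other 4. The same difference for the Gapdh control was 0.52 and 0.19 on these arrays, against 0.03 to 0.08. Named genes whose call was lost without these 2 arrays, called the doubted arrays below, are given with the value without them. In whole-brain RNA, fewer cells of a type and less RNA per cell cannot be told apart.

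Of the 45037 probe sets, 854 differed between the strains (limma, Benjamini-Hochberg adjusted p under 0.05), which is 1.9% of those tested. A probe set or gene past that threshold is said to be called. In DBA/2J 361 were higher (0.802%) and 493 were lower (1.09%). Among them 126 were higher and 148 lower by at least 1 log2 unit, and 10 were higher and 15 lower by at least 3. The median size of a called difference was 0.77, and the smallest was 0.31, against a median size of 0.08 over all probe sets. The median difference over all probe sets was 0.02. The 3 arrays of one strain all lay above the 3 of the other for 853 of the 854, and for 17.4% of all probe sets. Counted as genes, with the brightest probe set standing for each of 18193 genes, 143 were higher (0.786%) and 179 lower (0.984%), 322 in all (1.77%). Without the 2 arrays of raised actin difference, 576 probe sets passed, 527 of them among the 854, and 204 genes. Without 3 sleep-deprived brain arrays of narrow spread (C57BL/6J array 1, DBA/2J array 2 and AKR/J array 3), which enter only through the shared estimate of spread, 1652 probe sets and 663 genes passed, with all 854 among them.

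The largest rise was in Cap1, a cyclase-associated protein that turns over actin filaments. It read 9.37, 9.49 and 9.19 on the 3 DBA/2J arrays and 5.49, 5.24 and 5.43 on the C57BL/6J arrays. The DBA/2J level was 15.6-fold higher (log2 difference 3.96 ± 0.13 SE, n = 3 pools per strain, limma adjusted p = 8.84e-12), and a second Cap1 probe set was higher by 4.31. AKR/J lay at 5.38 to 5.52, beside C57BL/6J.

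Stab2, a scavenger receptor for hyaluronan known from liver sinusoids, read 7.16, 7.47 and 6.95 in DBA/2J against 4.19, 4.41 and 4.21 in C57BL/6J. It was 7.58-fold higher (2.92 ± 0.18, n = 3, limma adjusted p = 2.06e-08). In liver, where both strains read over 7, the difference was 0.40 (limma adjusted p = 0.11). Tmem87a, a membrane protein of the Golgi, was 6.63-fold higher in DBA/2J (2.73 ± 0.11), and the RNA-binding protein gene Rbm45 was 4.62-fold higher (2.21 ± 0.11). Their limma adjusted p-values were 8.68e-11 and 1.12e-09, and neither gene's strains overlapped. Here AKR/J split: it lay with DBA/2J for Tmem87a, at 7.60 to 7.89, and with C57BL/6J for Rbm45, at 4.76 to 4.94.

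Wdfy1, an adaptor on endosomes, was higher on 3 of its 5 probe sets, by 2.11 ± 0.11 on the brightest. Lsm12 was higher by 1.88 ± 0.18, the nucleotide hydrolase gene Hddc3 by 1.81 ± 0.15 and the pseudogene Pisd-ps3 by 1.72 ± 0.14. Gnb1 encodes a beta subunit of the G proteins that carry receptor signals to channels and enzymes. It read 11.01, 11.12 and 11.00 in DBA/2J and 9.15, 10.04 and 9.14 in C57BL/6J, a difference of 1.60 ± 0.16 (limma adjusted p = 8.85e-06). The high C57BL/6J value is array 2, the one with the raised actin difference, and it still lay below all 3 DBA/2J arrays. The rest of the 15 largest rises that are not described below were Lcorl, 2.83-fold higher, Slc15a2, a peptide transporter, at a log2 difference of 1.43, the zinc-finger gene Zfp729a at 1.43 and the chromatin co-activator gene Eny2 at 1.42. For Slc15a2 another probe set was lower in DBA/2J, and the call on the brightest was lost without the 2 doubted arrays (1.39, limma adjusted p = 0.080). Lcorl and Eny2 were each called on 1 of 6 probe sets. Both lost the call when the median over a gene's probe sets stood for it.

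The largest fall was in Snhg14, the long host transcript of snoRNAs that runs antisense to Ube3a. Its brightest probe set read 4.28, 4.16 and 3.89 in DBA/2J against 8.71, 8.83 and 8.59 in C57BL/6J. This is a 24.2-fold lower level (-4.60 ± 0.26, n = 3, limma adjusted p = 5.54e-09). The other 2 Snhg14 probe sets, both below 5 in both strains, differed by 0.20 and -0.06 and were not called. AKR/J lay at 8.60 to 8.76, so DBA/2J was the strain apart.

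Pttg1, securin, a regulator of sister chromatid separation, was 10.4-fold lower. It read 7.19, 6.98 and 7.66 in DBA/2J and 10.51, 10.92 and 10.53 in C57BL/6J (-3.37 ± 0.43, n = 3, limma adjusted p = 1.45e-04), with AKR/J at 6.80 to 7.64. Tmem267 was lower (-3.27 ± 0.22), as was Rpgrip1, a scaffold of the photoreceptor cilium (-2.87 ± 0.19). The other 3 Rpgrip1 probe sets lay at 3.26 to 4.07 in both strains and were not called. Soga3 was lower (-2.62 ± 0.12), as was the kinase gene Stk25 (-2.23 ± 0.10). In both, AKR/J lay near DBA/2J, at 6.54 to 6.69 and 6.72 to 6.84.

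Neat1, the non-coding RNA that builds nuclear paraspeckles, fell by 2.08 ± 0.14. It read 5.83, 6.13 and 6.04 in DBA/2J, 7.97, 8.03 and 8.23 in C57BL/6J and 7.71 to 7.93 in AKR/J. Ddah1, which breaks down an inhibitor of nitric oxide synthesis, was lower on 3 of 5 probe sets, at -1.98 ± 0.21 on the brightest. The epithelial genes Sbsn and Krt12 were lower, at -2.31 ± 0.14 and -2.05 ± 0.20, each on 2 probe sets. The 15 largest falls also held Gm26782 (-2.05), 2010315B03Rik (-2.02), 1500011B03Rik (-1.87) and Zfp874a (-1.83). The plot of the largest differences shows that AKR/J sat beside C57BL/6J for some of these genes and beside DBA/2J for others.

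**Figure D1:**
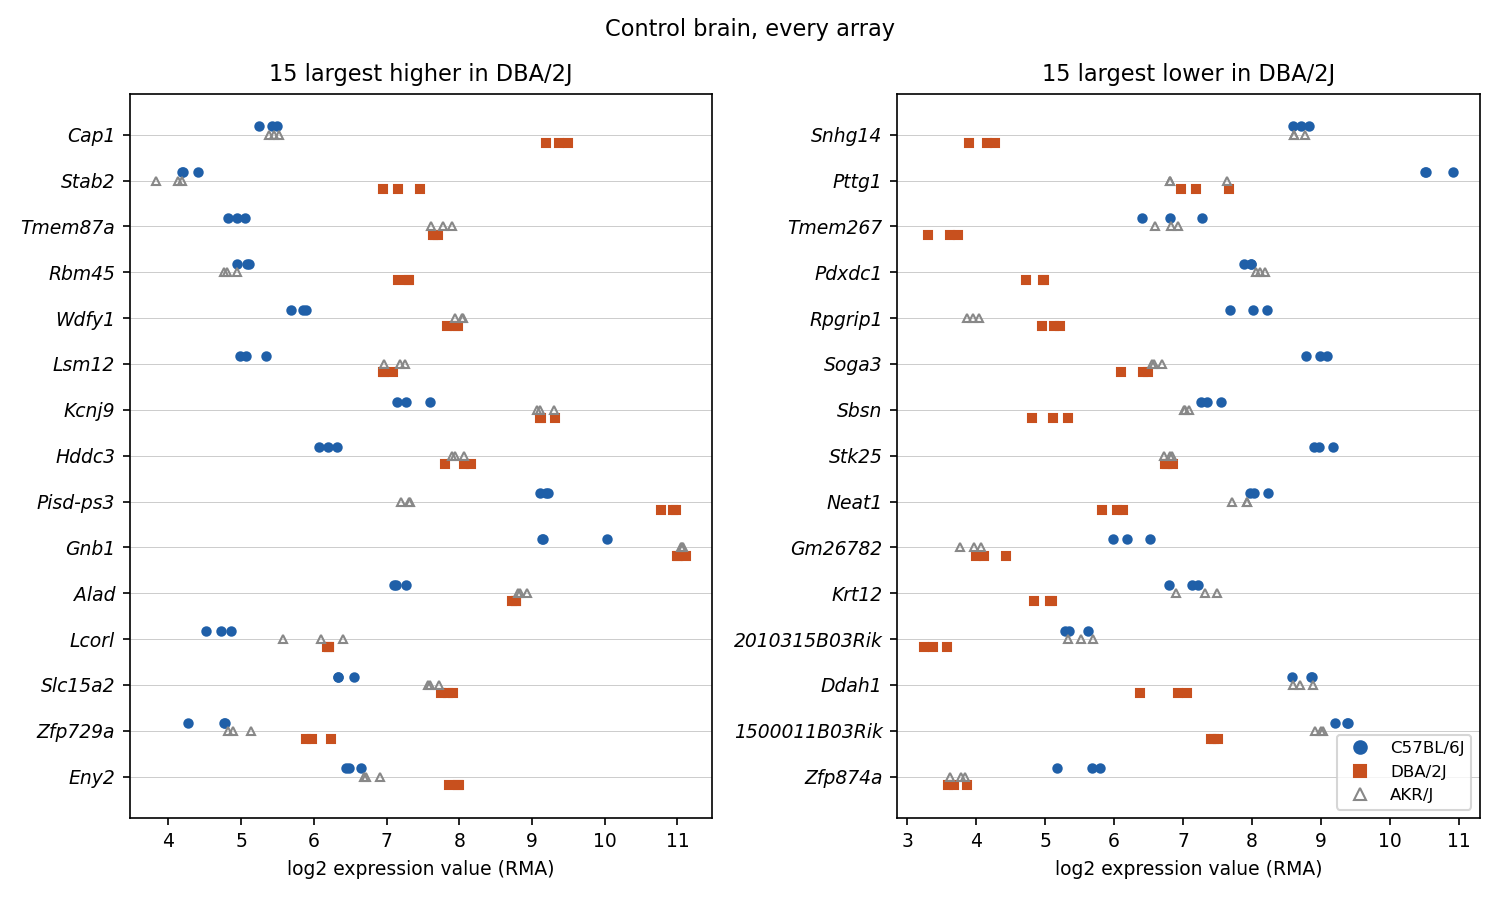
Log2 expression (horizontal axis) of the 15 genes with the largest rise (left) and the 15 with the largest fall (right) in DBA/2J control brain. Each point is 1 array of DBA/2J (squares), C57BL/6J (circles) or AKR/J (triangles); DBA/2J and C57BL/6J do not overlap in any of the 30 genes, from Cap1 at 3.96 higher to Snhg14 at -4.60.

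Several of the most precisely measured differences were smaller. Scg5, a chaperone of the prohormone convertase PC2, read 11.69, 11.63 and 11.63 in DBA/2J against 10.56, 10.49 and 10.48 in C57BL/6J. It was 2.20-fold higher (1.14 ± 0.07, n = 3, limma adjusted p = 1.36e-08). Pam, the enzyme that amidates neuropeptides, was higher by 1.28 ± 0.11 on a probe set below 6 in both strains, and the actin-binding gene Pfn1 by 1.33 ± 0.10. Fcrls, a gene of resident microglia, read 4.96, 5.12 and 5.04 in DBA/2J and 6.87, 6.81 and 6.80 in C57BL/6J and fell by 1.79 ± 0.10. Its groups lay well apart, and AKR/J, at 5.13 to 5.32, was near DBA/2J. Also lower in DBA/2J were Shisa4 (-1.66 ± 0.10), the unconventional myosin gene Myo7a (-1.56 ± 0.11), the mitochondrial ribosome gene Dap3 (-1.14 ± 0.09) and 4833420G17Rik (-1.29 ± 0.11). Card10 rose by 1.17 ± 0.10 and Supt16, a subunit of the histone chaperone FACT, by 1.03 ± 0.09.

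Of 18 genes listed for known variants between these strains, 17 were measured. Of these 5 were called higher in DBA/2J and none lower, and the list's median difference was 0.02 against 0.01 over all genes. Over all genes 0.786% were called higher and 0.984% lower, the shares to set beside this list and each list below. Glo1, glyoxalase 1, which detoxifies methylglyoxal, read 10.25, 10.15 and 9.85 in DBA/2J and 9.22, 8.61 and 9.10 in C57BL/6J. It was 2.15-fold higher (1.10 ± 0.13, n = 3, limma adjusted p = 7.38e-05), and all 4 of its probe sets were higher, by 0.69 to 1.22. Alad, an early enzyme of haem synthesis, was 3.02-fold higher (1.59 ± 0.09, limma adjusted p = 5.72e-09) on arrays at 8.72 to 8.78 against 7.10 to 7.27. AKR/J reached the DBA/2J level for both genes, 10.12 to 10.22 for Glo1 and 8.81 to 8.93 for Alad.

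Gabra2, the alpha 2 subunit of the GABA-A receptor, read 7.42, 7.21 and 7.65 in DBA/2J against 5.98, 5.90 and 6.21 in C57BL/6J. It was 2.64-fold higher (1.40 ± 0.27, n = 3, limma adjusted p = 0.00757), and 3 of its 5 probe sets were called higher, by 1.37 to 1.53. The call on the brightest was lost without DBA/2J array 3 (1.29, limma adjusted p = 0.0501) and without both doubted arrays (1.23, limma adjusted p = 0.157). AKR/J lay with DBA/2J, at 7.13 to 7.54.

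Kcnj9 and Kcnj10 are neighbouring potassium channel genes, for a neuronal G protein-gated channel and for the main inward rectifier of astrocytes. Kcnj9 read 9.32, 9.11 and 9.13 in DBA/2J against 7.27, 7.14 and 7.59 in C57BL/6J, 3.61-fold higher (1.85 ± 0.12, n = 3, limma adjusted p = 5.70e-08). One of its other probe sets was higher by 0.93, and another was lower by 0.43 (limma adjusted p = 0.0261). Kcnj10 was higher by 0.47 ± 0.11 (limma adjusted p = 0.0228), a call lost in 8 of 16 alternative settings, among them leaving out DBA/2J array 1, any single C57BL/6J array, or both doubted arrays (0.52, limma adjusted p = 0.092).

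Other variant genes differed less or were not called. Nnt, the mitochondrial transhydrogenase, read 7.33, 7.03 and 7.06 in DBA/2J against 6.64, 6.77 and 6.62 in C57BL/6J (0.46 ± 0.16, limma adjusted p = 0.234). The groups did not overlap, and in liver the same gene was higher by 1.42 (limma adjusted p = 6.2e-08). Myo5a, the motor protein of the dilute coat, was lower on 1 of 3 probe sets (-0.60, limma adjusted p = 0.0233) but not on the brightest (-0.28). Gpnmb differed by -0.25 (limma adjusted p = 0.683), Tyrp1 by -0.07 and the killer-cell receptor gene Klrd1 by 0.02, all on probe sets below 5.2. Rarb differed by 0.01 and Acads by 0.05.

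The GABA and glycine list held 22 measured genes, of which Gabra2 was higher and 1 was lower. The latter was Gabrb2, the beta 2 subunit, which fell by 0.69 ± 0.15 on 1 of 5 probe sets and lost its call in 7 of 16 settings, among them the fit without both doubted arrays (-0.70, limma adjusted p = 0.059). Of 28 glutamate receptor and scaffold genes only the vesicular glutamate transporter Slc17a7 was called, 8.67 to 8.87 in DBA/2J against 9.14 to 9.46 in C57BL/6J (-0.53 ± 0.11, limma adjusted p = 0.0151). The call was lost in 5 of 16 settings, among them the fit without both doubted arrays, where its limma adjusted p rounded to 0.050. Other probe sets of Gria1, an AMPA receptor subunit, and of Homer2 were called, at 0.97 and -0.47, while their brightest were not. None of 6 probe sets of Homer1, a synaptic scaffold gene induced by wakefulness, was called; the brightest differed by -0.03 ± 0.10. A dimmer one read 6.04, 5.68 and 6.43 in DBA/2J against 7.01, 7.30 and 7.19 in C57BL/6J (-1.12, limma adjusted p = 0.055), without overlap, and differed by 0.21 in sleep-deprived brain.

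No gene was called among 29 monoamine genes, 17 cholinergic genes or 32 neuropeptide and opioid genes. With 1.77% of all genes called, a count of 0 in lists of this size lies near the background. Their largest differences were -0.29 in Maob, which degrades monoamines, -0.39 in the nicotinic subunit gene Chrna3 and -0.66 in the stress peptide gene Crh. Outside these lists the somatostatin receptor gene Sstr1, picked after its values were seen, was higher by 1.21 ± 0.13 on arrays at 5.18 to 5.30 against 3.93 to 4.17. Of 35 potassium channel genes only Kcnj9 and Kcnj10 were called. Of 24 sodium and calcium channel genes only Scn4b, an auxiliary sodium channel subunit of striatal and other neurons, was called: it read 8.25, 8.19 and 8.50 in DBA/2J and 8.97, 9.02 and 8.99 in C57BL/6J and fell by 0.68 ± 0.11 (limma adjusted p = 0.00154). Its groups did not overlap. Single probe sets of the calcium channel genes Cacna1b and Cacna2d1, not the brightest, were called at 0.94 and -0.69.

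Of 21 clock genes 1 was called, Per3, a period gene linked to sleep timing. It read 7.30, 7.42 and 7.43 in DBA/2J and 6.19, 6.23 and 6.08 in C57BL/6J, 2.33-fold higher (1.22 ± 0.14, n = 3, limma adjusted p = 5.13e-05). Per3 was also called on 2 further probe sets, higher by 1.05 and 0.59, and the other 3 were not called. Per1 differed by 0.20 (limma adjusted p = 0.939), and Per2 had a mean of 5.59 in both strains. Dbp, a clock output factor, was higher by 0.43 ± 0.11 on its brightest probe set (limma adjusted p = 0.0757) and by 0.39 on a second, which was called. Csnk1e, a kinase of the PER proteins, was higher by 1.84 on its second brightest probe set (limma adjusted p = 1.20e-04) and differed by -0.23 on the brightest. Of 18 candidate genes for sleep traits Glo1 and Per3 were called.

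Klf9, a transcription factor that responds to glucocorticoids and thyroid hormone, was the only called gene of 19 glucocorticoid-induced genes. It read 10.22, 10.23 and 10.01 in DBA/2J against 11.28, 11.51 and 11.29 in C57BL/6J and fell by 1.21 ± 0.11 (limma adjusted p = 3.87e-06). It was lower on 3 of 7 probe sets; on the other 4 the differences ran from -0.25 to 0.76, and none was called. Of 30 activity-regulated genes Npas4, an early transcription factor of excited neurons, was higher by 0.78 ± 0.17 (limma adjusted p = 0.0243), at 4.76 to 5.28 against 4.04 to 4.48. That call was lost in 6 of 15 settings, among them the fit without both doubted arrays (0.62, limma adjusted p = 0.355). Of 37 heat shock and endoplasmic reticulum chaperone genes only Pdia6 was called on its brightest probe set, at a difference of -0.34 ± 0.08. Its call was lost in 12 of 16 settings, on leaving out any single array and without both doubted arrays (-0.37, limma adjusted p = 0.146) among them.

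The glyoxalase, glutathione and redox list held 38 measured genes, with 3 called higher and none lower, and a median of -0.02. Over all genes 0.786% were called higher. Beside Glo1 the called genes of the list were Mgst3, a microsomal glutathione transferase (0.69 ± 0.15, limma adjusted p = 0.0153), and Gsr, glutathione reductase (0.68 ± 0.11, limma adjusted p = 0.00210). Gsr read 7.64, 7.50 and 7.30 in DBA/2J against 6.82, 6.73 and 6.86 in C57BL/6J, without overlap. The Mgst3 call was lost in 5 of 16 settings, among them the fit without both doubted arrays (0.65, limma adjusted p = 0.15). Of 11 haem genes only Alad was called. Of 20 ethanol and aldehyde genes Aldh7a1, which clears an aldehyde of lysine breakdown, was lower (-0.77 ± 0.11), at 7.67 to 7.76 against 8.46 to 8.52. This was 1 of its 3 probe sets; the other two, both below 5, differed by 0.16 and 0.05 and were not called, so the median over its probe sets turned the direction (0.16). Of 41 cytosolic ribosomal protein genes Rpl14 was higher by 1.14 ± 0.15, and Rps6 and Rps2 were lower, by -1.33 ± 0.13 and -0.31 ± 0.08. Rps2 lost its call in 11 of 16 settings, among them leaving out any single array and both doubted arrays (-0.31, limma adjusted p = 0.251). The median of the list was 0.03.

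Of 26 measured interferon-stimulated genes 22 lay above 0 in DBA/2J, with a median of 0.28 against 0.01 over all genes, but only 3 were called, all higher, where 1.77% of all genes were called and 0.786% were called higher. Ifit3, an antiviral protein, read 8.10, 7.29 and 6.82 in DBA/2J against 6.20, 6.22 and 6.28 in C57BL/6J (1.17 ± 0.22, n = 3, limma adjusted p = 0.00685). Its relative Ifit1 read 5.37, 4.69 and 4.58 against 3.78, 3.82 and 3.76 (1.10 ± 0.17, limma adjusted p = 0.00128). Ifitm3, which blocks virus entry, read 9.17, 8.35 and 8.22 against 7.62, 7.79 and 7.65 (0.89 ± 0.22, limma adjusted p = 0.0439). The groups did not overlap for any of the 3, and DBA/2J array 1 was the highest each time.

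DBA/2J array 1 also held the highest summed level of the 9 measured pituitary markers, 13.55 against 10.90 to 12.37 on the other 5 arrays, with growth hormone, Gh, at 12.87 against 10.36 to 11.92. The part of these markers in the interferon values was not tested. Without that array Ifit3 and Ifit1 kept their calls. Ifitm3 lost its call in 9 of 16 settings: without that array (0.60, limma adjusted p = 0.223), without DBA/2J array 2 (1.01, limma adjusted p = 0.060), without any single C57BL/6J array, with the replicate block (0.89, limma adjusted p = 0.0504), with median centring, in the fit on 6 arrays and without 2 AKR/J control arrays. In a fit on the 6 arrays alone the Ifit3 difference of 1.17 had a limma adjusted p of 0.094. Without the 2 arrays of raised actin difference 6 genes of the list were called, all higher, where 204 of 18193 genes were called. That fit leaves out DBA/2J array 3, the lowest DBA/2J array for Ifit3 (6.82), Ifit1 (4.58) and Ifitm3 (8.22), so the higher arrays 1 and 2 remain.

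The guanylate-binding and Ifi200 families, 18 measured, gave 3 higher and 1 lower with a median of 0.26. Over all genes 0.786% were called higher and 0.984% lower. Gbp2, a GTPase induced by interferon gamma, read 4.94, 4.99 and 4.08 in DBA/2J against 3.72, 3.75 and 3.76 (0.93 ± 0.18, n = 3, limma adjusted p = 0.00724). Gbp7 was higher by 0.91 ± 0.18 and its neighbour Gbp3 by 0.82 ± 0.12 (limma adjusted p = 0.00924 and 6.38e-04). All of these levels were low, between 3.72 and 5.48, and the groups did not overlap. Gbp2 lost its call without DBA/2J array 1 (0.79, limma adjusted p = 0.058) and without array 2 (0.77, limma adjusted p = 0.059). Gbp7 lost its call without C57BL/6J array 2, without DBA/2J array 1 or 2, and without both doubted arrays (0.93, limma adjusted p = 0.052). Mndal, of the Ifi200 family, was lower by -0.45 ± 0.10 at levels of 2.68 to 3.39, a call lost in 7 of 15 settings, the fit without both doubted arrays among them (-0.51, limma adjusted p = 0.052); in liver it was lower by -3.63.

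Promoters of the 5 members called higher that hold the motif named next are shown because interferon acts through a short element there. The motif GAAANNGAAA, a core of the interferon-stimulated response element, was searched on both strands (TTTCNNTTTC on the other) in the 250 bases before each start, after the values had been seen. It was present in 2.98% of 32851 RefSeq promoters (GRCm38.p6). Counted by gene, with a match in any promoter, it was present in 3.13% of 14452 measured genes with a promoter. Among the 31 listed genes that matched a promoter 17 held it, as did 6 of the 7 called among these, Ifitm3 being the one without a match. Mndal, called lower, also holds the motif and is not shown. The stretches below are plus-strand sequence, which is the strand of all 5 genes, and capitals mark the motif. All letters are those of the reference build named above, and sequence variants between the strains were not examined. The promoters of the strain with the higher levels may therefore differ from the letters shown. The match in Gbp3 is a pair of overlapping motifs. They lie at chr3:142530253-142530322 for Gbp7, chr3:142559969-142560043 for Gbp3, chr3:142620574-142620643 for Gbp2, chr19:34583343-34583446 for Ifit3 and chr19:34640755-34640843 for Ifit1.
Gbp7: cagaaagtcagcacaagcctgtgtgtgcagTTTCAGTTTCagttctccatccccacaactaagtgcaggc
Gbp3: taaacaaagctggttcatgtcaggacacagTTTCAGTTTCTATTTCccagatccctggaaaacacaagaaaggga
Gbp2: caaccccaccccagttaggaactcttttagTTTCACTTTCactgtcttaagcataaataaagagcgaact
Ifit3: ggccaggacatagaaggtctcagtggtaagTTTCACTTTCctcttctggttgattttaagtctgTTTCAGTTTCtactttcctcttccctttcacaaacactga
Ifit1: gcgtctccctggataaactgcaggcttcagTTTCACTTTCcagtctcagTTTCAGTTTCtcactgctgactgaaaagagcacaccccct
The last motif ended 43, 29, 49, 112 and 75 bases before the start of Gbp7, Gbp3, Gbp2, Ifit3 and Ifit1. The match is a description of these letters and no evidence of binding.

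In sleep-deprived brain, where 1.92% of all genes were called between the strains, no member of the interferon list or of the guanylate-binding and Ifi200 list was called, and the list medians were 0.058 and -0.00091. Ifit1 differed there by 0.08 and Ifit3 by 0.35. The difference between the conditions was tested for each gene and reached the adjusted threshold for none, with an unadjusted p of 7.72e-04 for Ifit1, 0.0188 for Ifit3 and 0.00165 for Gbp3 (limma adjusted p = 1.00 for each). In control liver, where 7.68% of all genes were called (5.22% higher, 2.47% lower), the same lists had medians of 0.68 and 0.72, with 13 higher and 1 lower among the interferon genes and 9 higher and 3 lower in the other list.

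**Figure D2:**
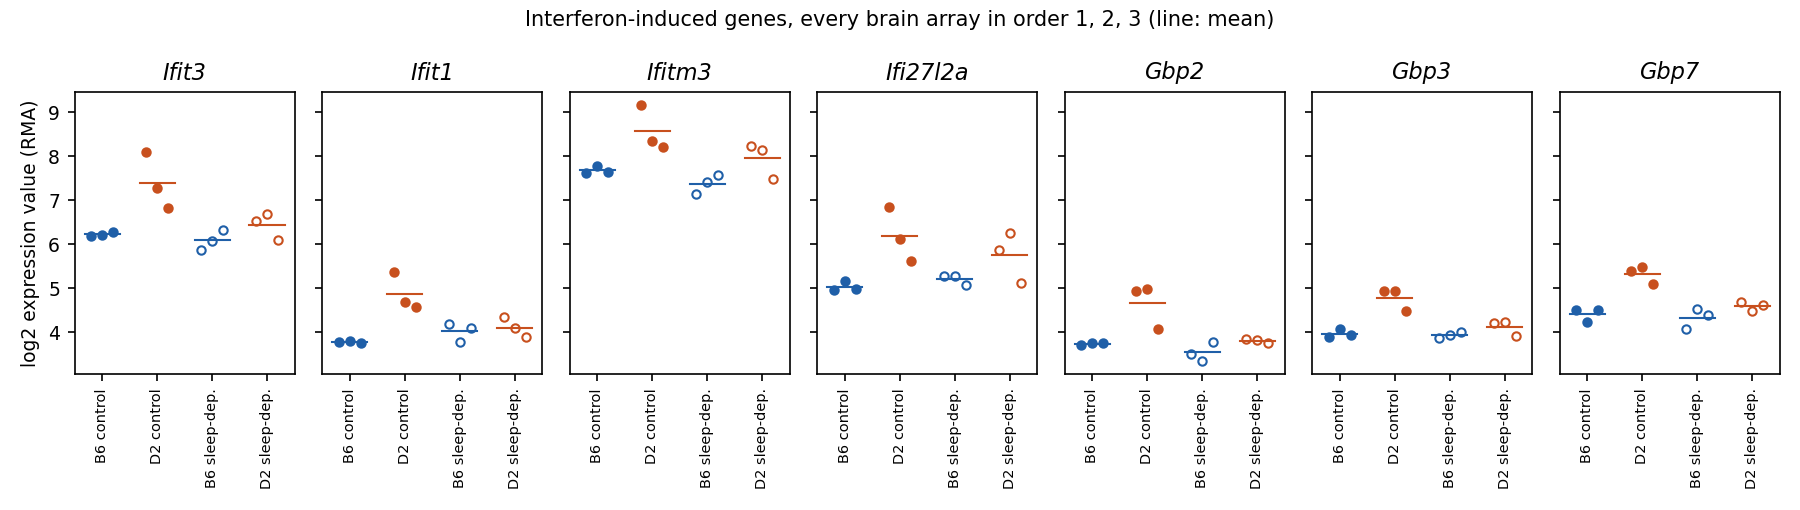
Log2 expression (vertical axis) of 7 interferon-induced genes on each control (filled) and sleep-deprived (open) brain array of C57BL/6J (B6, blue) and DBA/2J (D2, red), with lines at group means. Ifi27l2a was picked after its values were seen; Ifit3 reached 8.10 on DBA/2J control array 1 and stayed between 6.20 and 6.28 in C57BL/6J controls.

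Ifi27l2a, another interferon-induced gene picked after its values were seen, followed the order of Ifit3 across the DBA/2J arrays, at 6.84, 6.12 and 5.62 against 4.96 to 5.17 in C57BL/6J (1.15 ± 0.27, limma adjusted p = 0.0358). That call was lost in 7 of 16 settings. Xaf1 differed by -0.59 on its brightest probe set (limma adjusted p = 0.0698) and was higher by 2.64 on the other (limma adjusted p = 6.67e-06). In the list on major histocompatibility complex and antigen presentation, of 22 genes and median 0.15, H2-K1 was called on a dimmer probe set alone. H2-D1, a class I antigen-presenting molecule, was the only one called on its brightest. On its brightest probe set it was higher by 0.58 ± 0.12 (limma adjusted p = 0.0159), and without both doubted arrays by 0.63 (limma adjusted p = 0.058), one of 4 settings of 16 in which the call was lost. On 3 dimmer probe sets it was higher by 3.13 to 3.74, and the remaining 5 of 9 were not called. Those 3 probe sets gave DBA/2J means of 7.38 to 8.06 against C57BL/6J means of 4.15 to 4.69.

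Complement gave 1 higher and 2 lower of 21, where 0.786% of all genes were called higher and 0.984% lower. C1qb and C1qc, adjacent genes for chains of the C1q recognition molecule made in brain by microglia, both fell. C1qa, the gene of the remaining chain, did not differ (0.00023 ± 0.13). C1qb read 7.90, 7.73 and 7.57 in DBA/2J against 8.53, 8.45 and 8.49 in C57BL/6J (-0.76 ± 0.11, limma adjusted p = 7.92e-04), with all 3 probe sets lower. C1qc read 7.27, 7.09 and 6.78 against 7.83, 7.80 and 7.76 (-0.75 ± 0.15, limma adjusted p = 0.00763), but its call was lost without DBA/2J array 3 (-0.61, limma adjusted p = 0.057) and without both doubted arrays (-0.61, limma adjusted p = 0.141). The AKR/J means lay below those of DBA/2J for both genes, with C1qb at 7.41 to 7.68 and C1qc at 6.54 to 6.88. Cd59a, which blocks the membrane attack complex, was higher by 0.68 ± 0.13 on 7.37 to 7.50 against 6.57 to 6.92. That call was lost without C57BL/6J array 1 (0.58, limma adjusted p = 0.058) and without both doubted arrays (0.69, limma adjusted p = 0.071).

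Few cell type markers were called. Of 11 microglial markers C1qb was lower and the lysosomal protease gene Ctss was higher (0.52 ± 0.12, limma adjusted p = 0.0296, a call lost in 8 of 16 settings, without both doubted arrays at 0.59 and limma adjusted p = 0.091), with a median of 0.01 and summed levels of 11.24 to 11.46 in DBA/2J and 11.24 to 11.29 in C57BL/6J. Of 11 oligodendrocyte markers 10 lay below 0, with a median of -0.14, and only Mal, a myelin proteolipid, was called (-0.44 ± 0.10, limma adjusted p = 0.0194). The Mal call was lost in 5 of 16 settings, among them the fit without both doubted arrays (-0.42, limma adjusted p = 0.13). Summed oligodendrocyte levels were 14.22 to 14.26 in DBA/2J against 14.28 to 14.38 in C57BL/6J, so the groups did not overlap. A dimmer probe set of the myelin gene Mobp was lower by -0.61 (limma adjusted p = 9.91e-04).

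None of the 12 neuron, 12 astrocyte, 10 endothelium, 14 choroid plexus and ependyma, 9 pituitary, 9 melanocyte, 9 lymphocyte, 3 red blood cell or 8 hepatocyte markers was called on its brightest probe set. Summed levels of the red blood cell markers were 6.64 to 6.89 in DBA/2J against 7.19 to 8.24 in C57BL/6J, and those of the endothelium markers 10.60 to 10.61 against 10.64 to 10.71. Both were lower in DBA/2J without overlap, as 19.2% of all genes were apart in one direction or the other, and their part in the strain differences was not tested. Medians of these lists ran from -0.15 (red blood cell) to 0.34 (pituitary). The largest member was Cga, the shared alpha subunit of pituitary hormones, at 1.52 ± 0.88 with DBA/2J arrays of 10.06, 6.79 and 8.21 and C57BL/6J arrays of 6.17, 8.03 and 6.31. Those groups overlapped (limma adjusted p = 0.79). Alas2, an enzyme of red cell haem synthesis, differed by -0.94 (limma adjusted p = 0.209). It read 6.1 to 6.5 in DBA/2J against 6.9 to 8.1 in C57BL/6J and made up most of the summed red blood cell level. The remaining red blood cell markers, Hba-a1 and Slc4a1, differed by only -0.15 and -0.13. The haemoglobin genes Hbb-b2 and Hba-a2 differed by -0.25 and 0.11, and neither was called. Beyond the marker lists Serpina3n, an inhibitor induced in reactive astrocytes and picked after its values were seen, was higher by 1.16 ± 0.14, at 7.32 to 7.59 against 5.97 to 6.67.

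**Figure D3:**
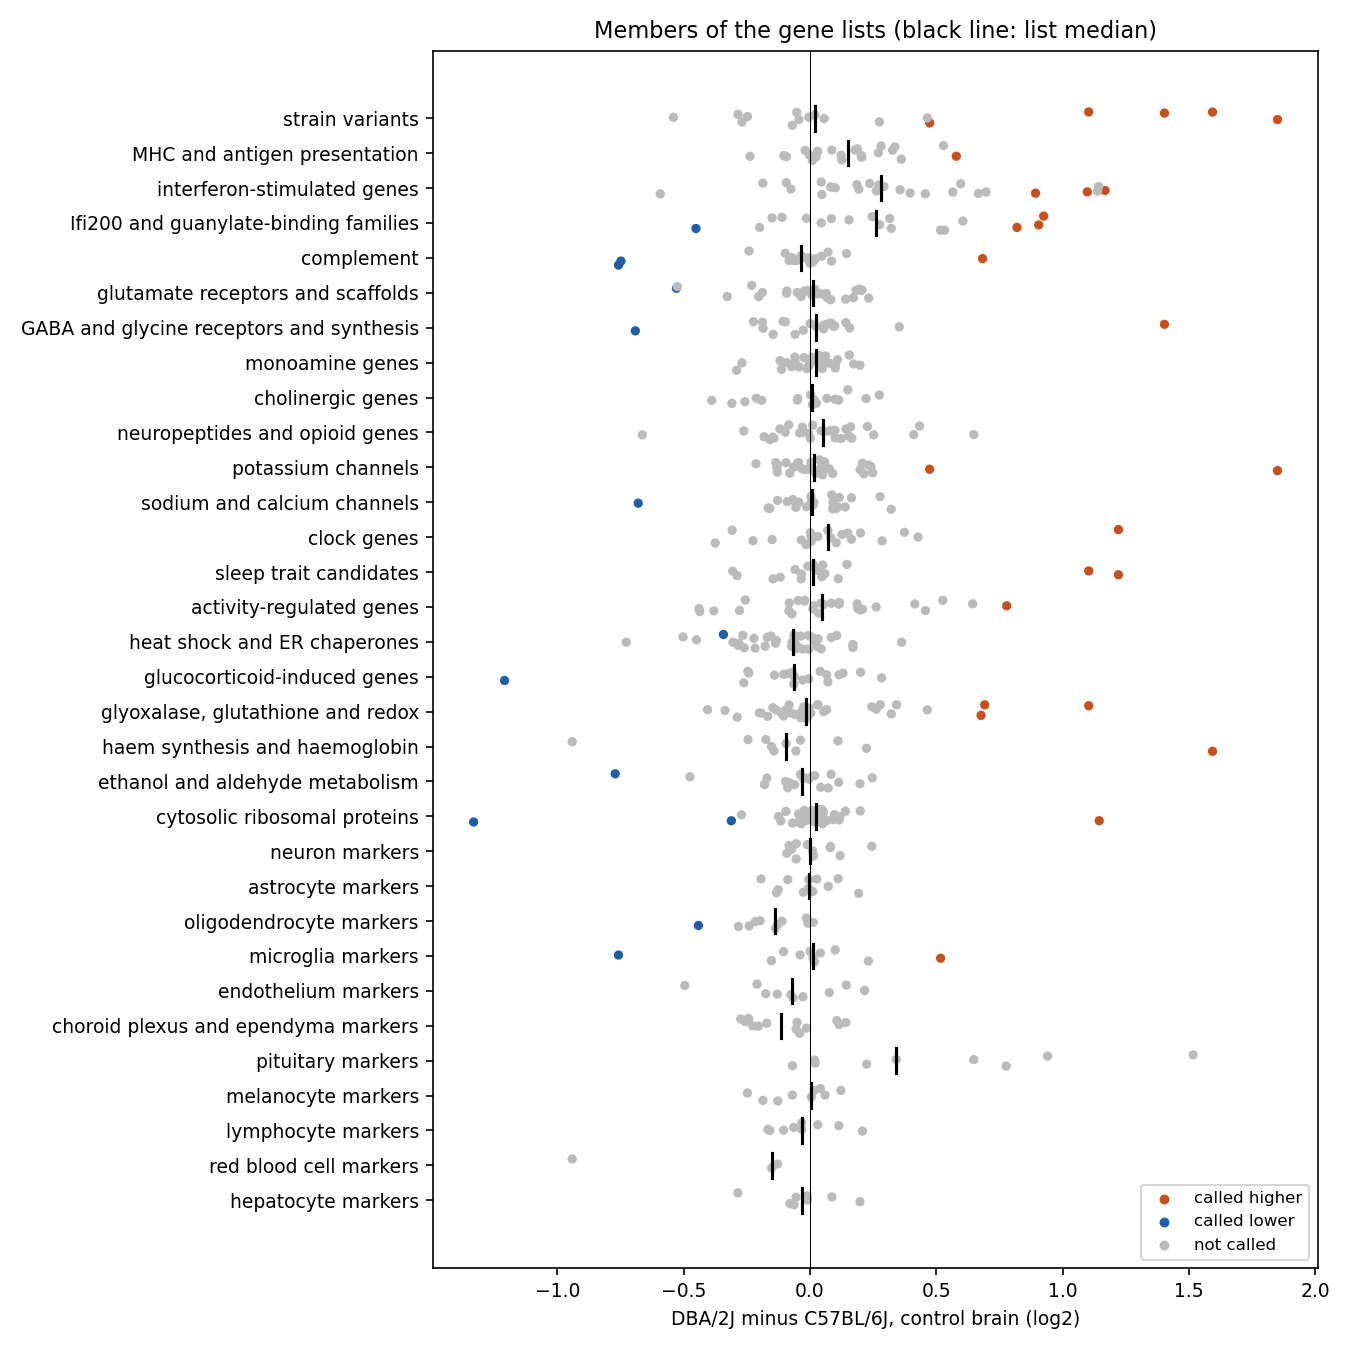
Log2 difference between DBA/2J and C57BL/6J control brain (horizontal axis) for each measured member of 21 pathway and 11 marker lists (rows), by its brightest probe set. Coloured points passed the adjusted threshold and black lines are list medians; the medians lie between -0.15 and 0.34, and the interferon and pituitary lists have the highest.

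Probe sets of the same gene often gave different answers. Of the 322 called genes 177 have several probe sets: in 26 all were called in the same direction, and in 115 only the brightest was called. A further 237 genes were called on another probe set alone, so 559 genes (3.07%) had any call. Among members of the lists these included H2-K1, Iigp1, Ier5, Hspb1, Pdia3, Aldh2, Rps3 and Map2. In 15 genes probe sets were called in opposite directions. Pdxdc1, a decarboxylase-like gene, differed by -3.06, -1.11 and -0.59 on 3 probe sets and was higher by 3.58 on the remaining one. Prune2 was higher by 1.28 and 0.62 and lower by -4.30. Camk2n1, an inhibitor of the kinase CaMKII, read 12.83 to 12.85 in DBA/2J against 12.05 to 12.32 on the probe set that was higher (0.62 ± 0.08). Its other one was lower, and by a larger amount.

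The rest of the 15 were 1500011B03Rik, Slc15a2, Sox11, Adi1, Ssbp2, Kcnj9, Ildr2, 4632427E13Rik, Camk4, Dpy19l3, Hcfc2 and Eif2ak1. The brightest probe sets of 4632427E13Rik (-0.87, limma adjusted p = 0.238), Dpy19l3 (0.60, limma adjusted p = 0.322) and Hcfc2 (0.79, limma adjusted p = 0.092) lost their calls without both doubted arrays. A dim probe set moved by several units in genes whose brightest was near 0: Rps9 fell by 3.57 on a probe set of 4.84 against 8.41 and differed by 0.12 on the brightest, and Prdx2, a peroxiredoxin gene, differed by -2.42 and 0.32 in the same way. The immunoglobulin gene Ighm was lower on 2 probe sets, by -1.49 and -0.95, while the other 9 were not called. Where the strains differ in sequence under a probe, a probe set can read them unequally at equal RNA levels. This limit holds for every gene named here, the largest differences among them, and was not tested. Stab2, Tmem87a, Rbm45, Tmem267 and Stk25 have 1 probe set each, so no second reading can be set beside theirs. The call of a gene therefore rests on the probe set named as its brightest.

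**Figure D4:**
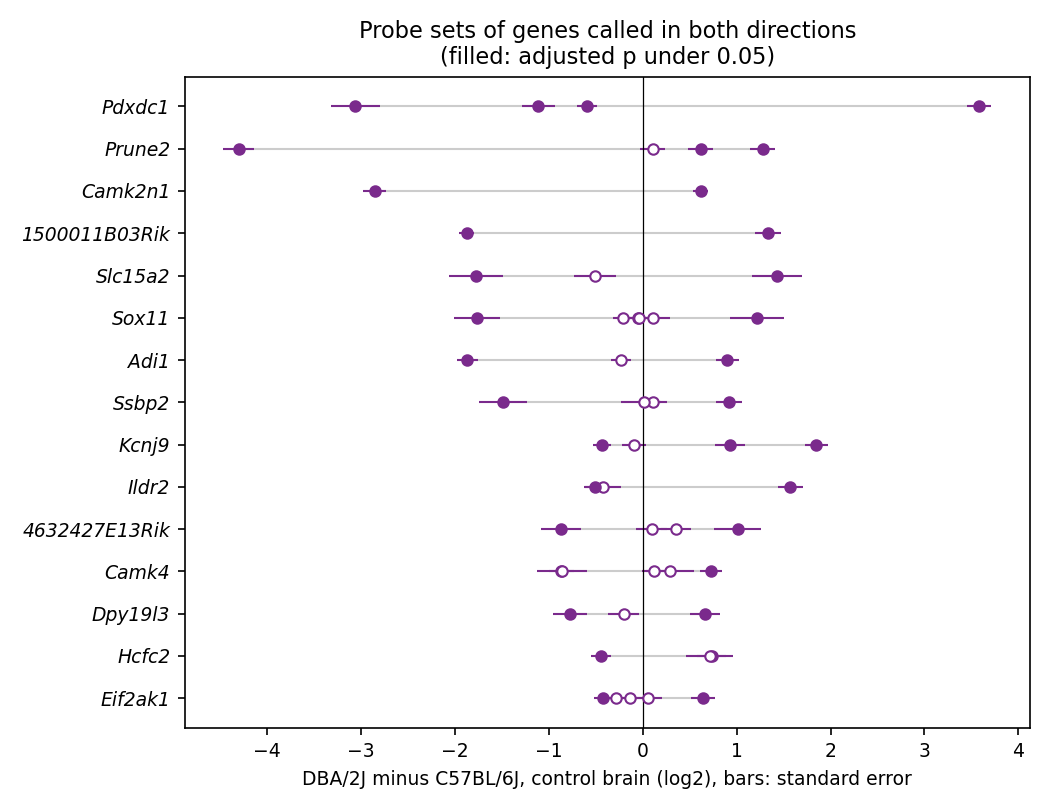
Log2 difference between DBA/2J and C57BL/6J control brain (horizontal axis, bars: standard error) for every probe set of the 15 genes with calls in both directions. Filled points passed the adjusted threshold; Pdxdc1 runs from -3.06 to 3.58 and Prune2 from -4.30 to 1.28.

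In RefSeq order (GRCm38.p6), 42 of 318 placed called genes (13.2%) had a called neighbour, against 3.28% of genes not called. They formed 20 runs, 2 of 3 genes and 18 of 2, and 13 of the 20 ran in one direction. One run of 3 was 2010315B03Rik, 4930526I15Rik and Ppp2r3d, lower by -2.02, -0.63 and -0.45. The other was Hspb6, a small heat shock protein gene, at -0.99, Lin37 at 0.36 and Psenen, a gamma-secretase subunit, at -0.36. Neither run of 3 held without both doubted arrays, where 4930526I15Rik (-0.56, limma adjusted p = 0.147), Ppp2r3d (-0.40, limma adjusted p = 0.211), Lin37 (0.36, limma adjusted p = 0.066) and Psenen (-0.39, limma adjusted p = 0.199) lost their calls. Over the 16 settings these genes lost their calls in 3, 6, 3 and 10. The pairs below that hold Ppt1, Kcnj10, Gbp7 or C1qc also lost that member without both doubted arrays. Pairs in one direction were Ppt1 (0.43) and Cap1 (3.96), Hdhd3 (0.78) and Alad (1.59), Kcnj9 and Kcnj10, Gbp7 and Gbp3, and C1qb and C1qc. Rpgrip1 and Supt16 moved in opposite directions, at -2.87 and 1.03. Ppt1, a lysosomal thioesterase, lost its call in 12 of 16 settings, among them leaving out any single array and both doubted arrays (0.40, limma adjusted p = 0.377).

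The same strain difference was measured on arrays of other mice, the sleep-deprived brains, which share no array with the controls. Both comparisons come from the same fit, however, and each probe set has the same standard error in both. A small shared error favours a call in both, so the calls are not independent. There 915 probe sets were called (2.03%), and 630 of the 854 were called in the same direction, which is 73.8% of the control calls and 68.9% of the sleep-deprived calls. None was called in the opposite direction, and 844 had the same sign, against 58.9% of all probe sets. Of the 274 with a control difference of at least 1, 262 were called. The largest genes repeated: Cap1 differed by 3.86, Snhg14 by -4.61, Stab2 by 2.92 and Glo1 by 0.96. The median ratio of the sleep-deprived to the control difference was 0.92, over probe sets chosen by the control difference.

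A test of the difference between the conditions called 0 probe sets (limma), and 1217 had an unadjusted p under 0.05, which is 2.7%. Among control calls with the smallest such p were Ifit1, Gbp3 and Pdia6, the last at -0.34 in controls and 0.10 after sleep deprivation. Genes not called in either condition at the head of that ranking were Ffar2, a receptor for short-chain fatty acids, at 0.33 and -0.45, Tsks at 0.28 and -0.38, Fgl1 at 0.26 and -0.36, the sterol enzyme gene Lss at 0.29 and -0.24, and Ppard, a nuclear receptor, at -0.33 and 0.18.

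In control liver 2508 probe sets were called (5.57%). DBA/2J control liver array 1 stood apart, with 3' minus 5' differences of 2.16 for actin and 0.65 for Gapdh. The other control liver arrays of these strains lay at 1.04 to 1.17 and 0.01 to 0.10. Without that array 1857 probe sets were called in liver. Of the 854 brain calls 285 were called in liver in the same direction, 33.4% of the brain calls and 11.4% of the liver calls, and 16 in the opposite one. The same sign was seen in 666, against 52.0% of all probe sets, and the median ratio of the liver to the brain difference was 0.29. The difference between tissues was itself called for 341 of the 854, and for 2.57% of all probe sets. The 854 were chosen by their difference on control brain arrays that also enter this test. That choice by itself tends to raise the share and to lower the ratio, by an amount that was not measured. Cap1 was higher in both tissues (3.96 and 3.37), as were Glo1 (1.10 and 1.02), Alad (1.59 and 1.42) and Pfn1 (1.33 and 1.37), and the tissue difference of these was not called. Kcnj9, at 9.19 and 7.33 in brain, lay at 3.43 and 3.09 in liver, where its difference was 0.34.

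**Figure D5:**
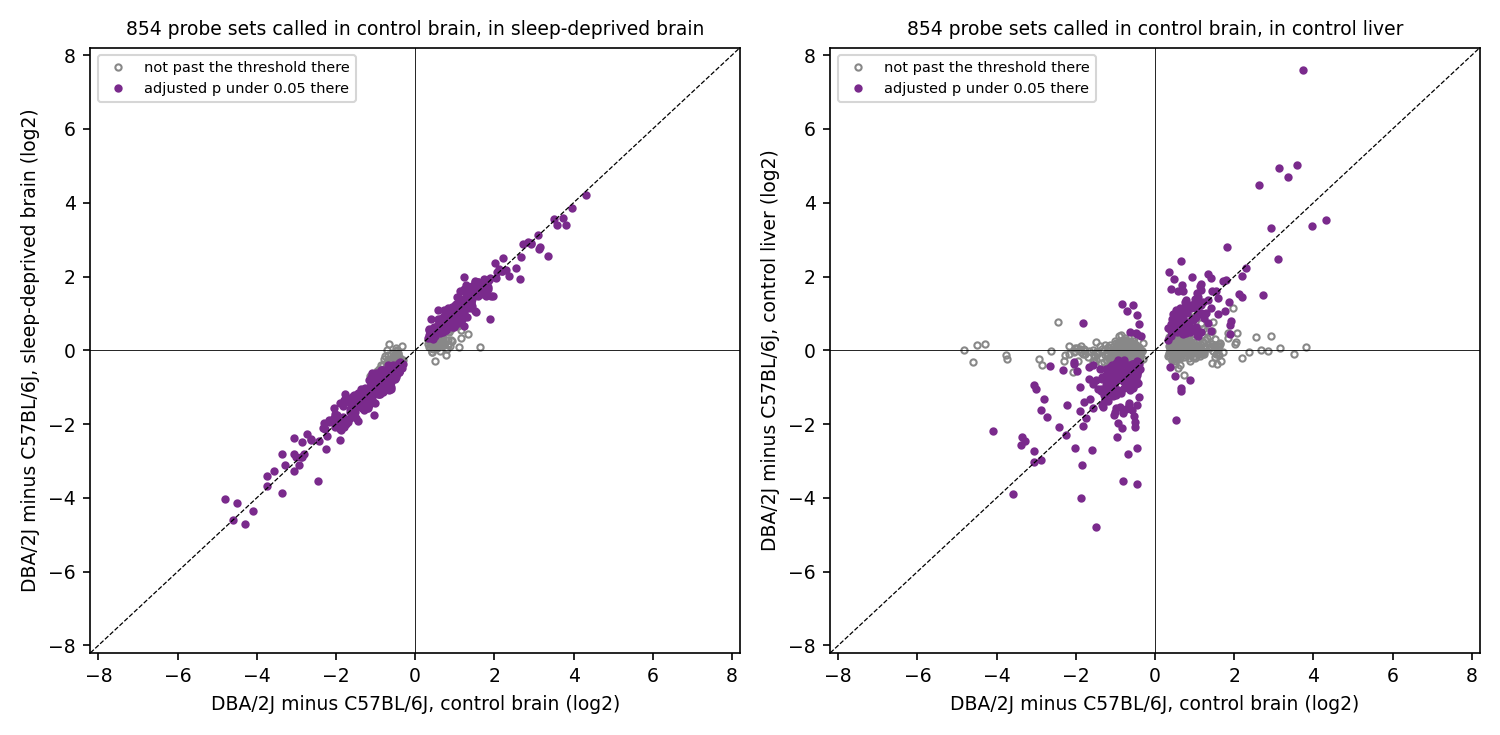
Log2 difference between DBA/2J and C57BL/6J in control brain (horizontal axis) against the same difference in sleep-deprived brain (left) and control liver (right) for the 854 probe sets called in control brain. Filled points were also called there, 630 in the same direction on the left and 285 on the right, and the dashed line marks equal differences.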

How the data were processed

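Affymetrix mouse arrays had been hybridised with biotin-labelled RNA, each from a pool of 3 mice, per the labels' protocols. The authors deposited log2 expression values, and the submitters' processing notes name RMA without a version. This summary shrinks differences of dim probe sets. The 64 manufacturer's control probe sets were left out, and 45037 were tested; 34945 had 1 gene symbol, 932 several and 9160 none in the platform annotation, updated by gene ID to RefSeq.

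limma 3.58.1 (R 4.3.3) was fitted to the 18 brain arrays with 1 mean per group (6 groups), with Benjamini-Hochberg adjustment over all probe sets and a threshold of 0.05; a value past it is a call. Liver was fitted alike on its 18 arrays, and tissue differences on all 36. Errors after ± are limma standard errors. The fit was tested on simulated data. An exact permutation test of 3 against 3 arrays cannot go below p = 0.1. The number of arrays limits the precision. The labels name the arrays of a group replicates and pools of different mice.

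The brightest probe set of a gene, by its mean over the brain arrays, stood for it. Named genes were the 15 largest differences each way among calls without overlap, the 10 next smallest p, up to 5 called members of each list (or its largest difference where none was called), members of 5 neighbour runs (ties broken by summed difference, after values were seen), 8 genes by the difference between conditions, and a fixed set; others are named as picked after their values were seen. The 32 gene lists, the rule and the comparison were chosen with earlier results of these data known. Summed marker levels are log2 of the summed linear values. Alternatives were other samples in the fit, median centring, a mean of at least 5, other variance models, the replicate number as a block, the median over a gene's probe sets, and leaving out arrays. Same-numbered control arrays of the strains deviated together with r of 0.32, -0.11 and -0.33, so the numbers do not pair them. 2 AKR/J control arrays carry ZT 6 in the title and ZT 0 in the source name.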

Additional observations from a re-analysis of the deposited data

Results flagged for a closer look

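For 35 named genes the strain difference (DBA/2J minus C57BL/6J) itself differed between control brain and control liver. In all 118 genes were named, 104 of them by rule. The test was limma on the brain difference minus the liver difference over all 36 arrays (adjusted p under 0.05), and 2.57% of all probe sets passed it. Many genes were named for their control brain values, which also enter the test, so a larger difference in brain is favoured. The brain minus liver values are given below on the log2 scale.

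The rise in DBA/2J was larger in brain for Stab2 (2.52), Pisd-ps3 (1.78), Slc15a2 (1.79), Kcnj9 (1.51), Gabra2 (1.31), Card10 (1.27), Zfp729a (1.26), Tmem87a (1.24), Lcorl (1.20), Scg5 (1.04), Eny2 (0.91) and Kcnj10 (0.68). Tmem87a was nonetheless higher in both tissues, at 2.73 in brain and 1.49 in liver. The fall was larger in brain for Snhg14 (-4.29), Soga3 (-2.61), Sbsn (-2.01), Krt12 (-2.00), 1500011B03Rik (-1.99), Fcrls (-1.82), Gm26782 (-1.73), Shisa4 (-1.63), Neat1 (-1.48), Ddah1 (-1.41), Dap3 (-1.29), Klf9 (-1.07), C1qc (-1.02), Aldh7a1 (-0.77) and Stk25 (-0.74). Of these Stk25 was lower in both tissues, at -2.23 and -1.49. Several of the genes larger in brain were near the lowest array values in liver, where a strain difference can hardly be read. Liver means in DBA/2J and C57BL/6J were 2.45 and 2.76 for Snhg14, 3.12 and 3.13 for Soga3, and 3.11 and 3.16 for Krt12. They were 2.90 and 2.81 for Scg5, and 2.72 and 2.63 for Gabra2. Others were high in liver, such as Klf9 (10.82 and 10.95) and Aldh7a1 (11.33 and 11.33).

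The difference was larger in liver for Hddc3 (brain minus liver -0.99), Mgst3 (-1.07), Zfp874a (1.29) and Mndal (3.18), and Nnt, not called in brain, gave -0.95. Mndal differed by -3.63 in liver and by -0.45 in brain. Pdia6 (-0.73) was lower in brain, at -0.34, and higher in liver, at 0.39. Alas2 (-1.66) and Ffar2 (0.64) were not called in brain, at -0.94 and 0.33, and in liver Alas2 was higher by 0.71.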

How the results depend on the processing

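Of 15 alternatives to the control brain count of 854 probe sets, only leaving out the 3 narrow sleep-deprived brain arrays moved it by over 1.5 times, to 1652, with 809 higher and 843 lower. Leaving out 1 array at a time gave 594 to 711 probe sets and 217 to 245 genes, against 322 genes. The gene count was 663 without the 3 narrow arrays and 204 without C57BL/6J array 2 and DBA/2J array 3. The replicate number as a block gave 794 probe sets and 297 genes, and the control arrays share only a number. The fit on the 6 arrays alone called 856, of which 654 were among the 854. The count of tissue differences, 1159, was 633 on probe sets of mean at least 5, and leaving out 1 array gave 893 to 1244. It was 721 without the brain and liver control arrays of raised actin difference, a setting added after seeing the data. Sleep-deprived brain gave 661 to 877 and liver 1749 to 2739 when 1 array was left out, and the difference between conditions gave 0 under every alternative run. Taking the median over a gene's probe sets reversed Slc15a2 (-0.54), Aldh7a1 (0.16), Ppt1 (-0.052), Camk2n1 (-1.12), Prune2 (-1.14), Hcfc2 (-0.29) and Dpy19l3 (-0.69), and 15 more of 85 called named genes lost their call. Without both doubted arrays 24 of the 85 lost it, in the fit on 6 arrays 15, with median centring 9, with the replicate block 5, and without the narrow arrays 0. The cause of these changes was not tested. Array signal limits dim genes such as Mndal, Gbp2 and Ifit1.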
